A study of Mus musculus with 36 samples.

Results

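The AMPA and NMDA receptor subunits measured here were the 10 genes Gria1, Gria2, Gria3, Gria4, Grin1, Grin2a, Grin2b, Grin2c, Grin2d and Grin3a, taken by symbol from the 36172 gene entries of the deposited table. All 10 were present, and all 10 passed the filter on low counts in every comparison. The samples were hippocampi of Cx3cr1-NuTRAP mice of both sexes. In this model Cre is driven from the Cx3cr1 promoter, which is active in microglia and in macrophages of the brain's borders, and its induction labels the ribosomes of those cells with GFP. Translating ribosome affinity purification (TRAP) recovers the labelled ribosomes with an anti-GFP antibody. The input is a sample of the cleared homogenate kept from before that step, so it holds RNA of the whole tissue. The inputs came from 10 young early-induced mice of 6 months (5 females, 5 males), 12 old early-induced mice of 22 months (7 females, 5 males) and 7 old late-induced mice of 22 months (5 females, 2 males). Each of those 7 late-induced mice also gave 1 TRAP library. Every mouse carried the NuTRAP genotype and was induced, so no group without recombination was compared, and the labels name induction as early or late without an age. The young group was early-induced, so old late against young differs in both age and induction.

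AMPA receptors are the glutamate-gated channels that carry most fast excitatory current in the brain. They are tetramers of the subunits encoded by Gria1 to Gria4, and a receptor that holds the edited product of Gria2 lets little calcium through. NMDA receptors need glutamate, a co-agonist bound by the obligatory subunit encoded by Grin1, and depolarisation to open. Their GluN2 subunits, encoded by Grin2a to Grin2d, set the kinetics, and in forebrain neurons the share of Grin2a rises against Grin2b during early postnatal life. Grin3a encodes a subunit that lowers calcium entry.

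Each library held between 12.9 M and 20.45 M estimated counts. Levels are given as CPM, the count scaled to a library total that was corrected for composition (TMM). The hippocampal label was set beside marker lists. All 9 neuron markers with counts were expressed in every group, with summed levels of 7665 to 8770 CPM in the inputs, while the remaining one, Map2, was listed at 0 in all libraries. Dentate gyrus and CA field markers summed to 273 to 389 and 646 to 792 CPM in the inputs. Choroid plexus markers, which mark neighbouring tissue, summed to between 47.5 and 4103 CPM within the inputs, highest in old early replicate 5. Thalamus markers summed to 112 to 348 CPM, highest in old early replicate 2, and striatum markers to 133 to 232 CPM. The 12 microglial markers summed to 11801 to 18847 CPM in TRAP and 642 to 948 CPM in the matching inputs. Positions on the sample sheet did not mix the input groups, so group and sheet position cannot be told apart. Nothing in the labels ties the mice to litters or cages.

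The AMPA subunits lay on chromosome 11 (Gria1, 57011618 to 57330244, plus strand), chromosome 3 (Gria2, 80684936 to 80802791, minus strand), chromosome X (Gria3, 41401304 to 41678601, plus strand) and chromosome 9 (Gria4, 4417893 to 4796234, minus strand) in the deposited coordinates of mm10. Grin1 lay on chromosome 2 (25291177 to 25319163), Grin2a on 16 (9577710 to 9992533), Grin2b on 6 (135729805 to 136173511), Grin2c on 11 (115249169 to 115267243), Grin2d on 7 (45832483 to 45866681) and Grin3a on 4 (49661611 to 49845769), all on the minus strand. Grin1 overlapped 2 other entries, Lrrc26 and E130003G02Rik, with means of 29.2 and 196 counts per library, so a small part of its reads cannot be assigned with certainty. The deposited models of 2 members ended over 5 kb before the RefSeq 3′ end, and those of Gria2 and Grin2d ended before it by less. At the 3′ end RefSeq extends Grin2b by 16.58 kb, Grin2a by 9.81 kb, Gria2 by 3.49 kb and Grin2d by 0.6 kb. It extends the other 6 members by 0 kb there. At the 5′ end RefSeq extends Grin2d by 4513 bases, Grin2a by 3550, Gria2 by 1436 and the others by at most 485 (Gria3). Of 21248 protein-coding genes matched to RefSeq, 3.16% were shortened by over 5 kb. PolyA RNA was sequenced, and reads in the missing 3′ ends are not counted for these genes.

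The RefSeq promoter sequences at hand covered 5 of the 10 members. The 150 bases upstream of Grin1 (chr2:25319188-25319337, minus strand) and of Gria4 (chr9:4796235-4796384, minus strand) of GRCm38.p6 are shown because the first gene was lower in both old groups and the other was the AMPA subunit whose level did not pass the test with age. Capitals mark the E-box CACGTG, and the searched windows also covered the GC box GGGCGG and the TATA box TATAAA on both strands.
Grin1: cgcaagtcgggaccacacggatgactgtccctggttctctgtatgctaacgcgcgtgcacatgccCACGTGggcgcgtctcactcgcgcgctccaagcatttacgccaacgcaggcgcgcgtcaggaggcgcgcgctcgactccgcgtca
Gria4: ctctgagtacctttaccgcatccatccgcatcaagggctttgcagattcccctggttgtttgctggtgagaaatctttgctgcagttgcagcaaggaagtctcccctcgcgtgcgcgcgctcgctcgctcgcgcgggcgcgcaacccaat
Grin1 held 2 E-boxes in its 250 upstream bases, 1 of them in the stretch shown, a motif present in 6.0% of the 32851 promoters of that length. Neither gene had a GC box, found in 32.7% of promoters, or a TATA box, found in 12.4%. These matches describe the letters and nothing else.

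Per kilobase of exon within the deposited model, Gria1 was the highest member in young input, at 189 ± 4.63 CPM per kb (SD, n = 10). Grin1 with 64.8 ± 2.78 and Gria2 with 61.9 ± 2.73 CPM per kb followed and overlapped within their SDs. Gria3 came next with 23.7 ± 1.61 CPM per kb. Grin2c stood at 13.6 ± 0.962, Gria4 at 10.1 ± 0.787 and Grin2a at 8.09 ± 0.932 CPM per kb. Grin2b with 5.87 ± 1.40 and Grin2d with 5.55 ± 0.652 CPM per kb overlapped, and Grin3a was lowest at 3.56 ± 0.291 CPM per kb. Exon length was the union of all GENCODE exons inside the deposited span. It was 5.94 kb for Gria1, 9.68 kb for Grin1, 12.02 kb for Gria2 and 12.28 kb for Grin3a. The order of all members depends on these unions, which pool the exons of all isoforms. By CPM alone, Grin2d was lowest in young input at 24.3 ± 2.86, below Grin3a at 43.8 ± 3.57. The order of the GluN2 subunits also rests on models that leave out the long 3′ ends of Grin2a and Grin2b and 5′ sequence of Grin2a and Grin2d. The deposited spans held 5.09 of 17.93 kb of exon for Grin2a, 8.27 of 24.84 kb for Grin2b and 4.38 of 6.66 kb for Grin2d. The plot of levels by library shows every library.

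**Figure D1:**
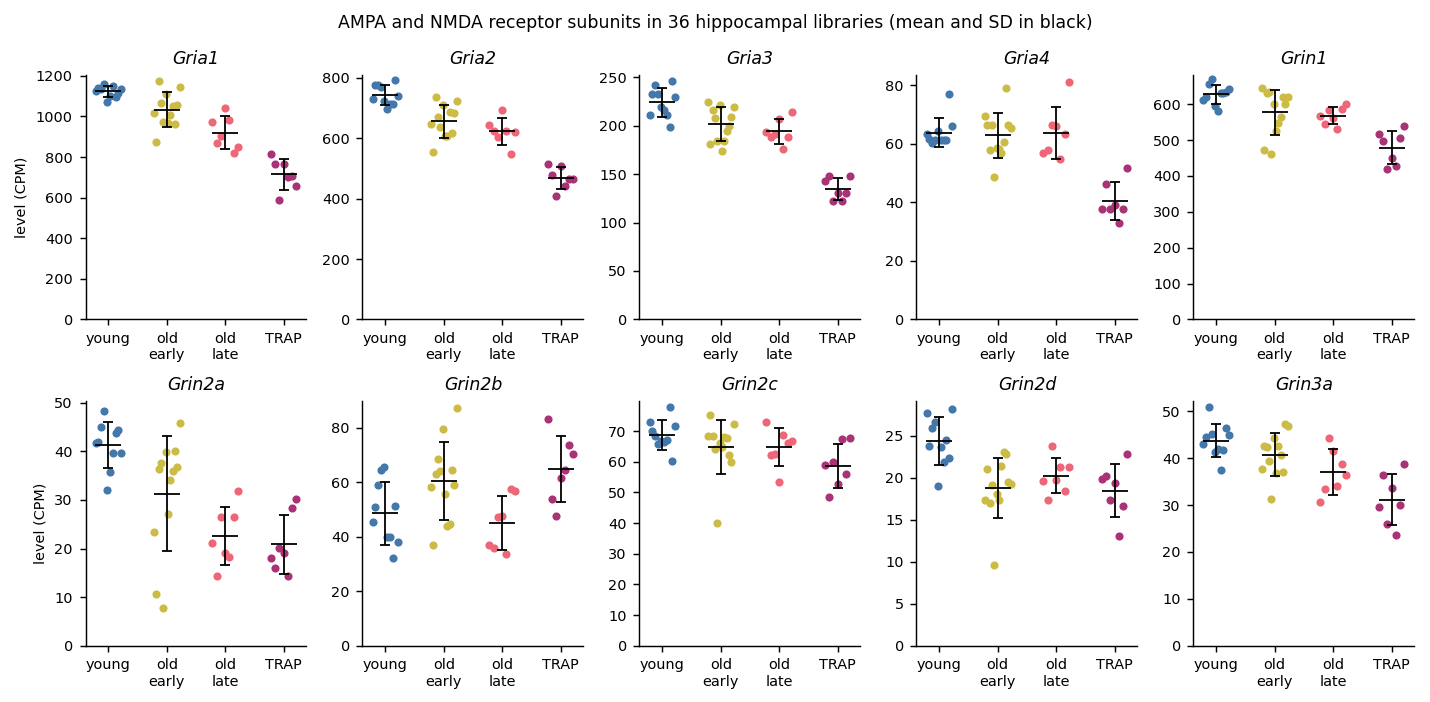
Level in CPM (vertical axes start at 0) of each subunit in every library of the young, old early and old late inputs and of TRAP, with mean and SD in black. Gria1, Gria2, Gria3 and Gria4 in TRAP lie below every old late input, and 2 old early libraries of Grin2a lie at 7.78 and 10.7 CPM.

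With age, 3 of the 4 AMPA subunits were lower in input in both old groups. Gria1 ran from 1073 through a median of 1129 to 1161 CPM in young input, from 874 through 1034 to 1177 CPM in old early input and from 822 through 903 to 1044 CPM in old late input. The young and old late ranges did not overlap, while 9 of 12 old early libraries lay below every young one. Gria1 fell by 0.12 ± 0.04 on the log2 scale (SE) in old early and by 0.30 ± 0.05 in old late input, with adjusted p of 0.0283 and 2.591e-05 (edgeR quasi-likelihood test, Benjamini-Hochberg). With upper quartile scaling the old early call on Gria1 was lost (-0.11, edgeR adjusted p = 0.0513), a fit in which 4 members and 26.5% of genes were called in old early input. Both comparisons use the same young inputs and are not independent.

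Gria2, which encodes the subunit that limits calcium entry, ran from 698 through 735 to 792 CPM in young, from 556 through 658 to 738 CPM in old early and from 548 through 624 to 695 CPM in old late input. Here too the old late libraries lay below all young ones. Its log2 changes were -0.18 ± 0.04 in old early (edgeR adjusted p = 0.00192) and -0.26 ± 0.05 in old late input (edgeR adjusted p = 0.000135). Gria3 ran from 199 through 225 to 247 CPM in young, from 174 through 204 to 225 CPM in old early and from 176 through 192 to 214 CPM in old late input. The ranges overlapped, and the changes were -0.16 ± 0.05 (edgeR adjusted p = 0.0117) and -0.21 ± 0.05 (edgeR adjusted p = 0.00255). Gria4 was the exception among the 4, with means of 63.9 ± 4.96, 62.9 ± 7.71 and 63.8 ± 8.96 CPM (SD, n = 10, 12 and 7). Its log2 changes of -0.03 ± 0.06 and -0.03 ± 0.07 did not pass the test.

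Among the NMDA subunits, Grin1 ran from 582 through 632 to 670 CPM in young, from 460 through 601 to 645 CPM in old early and from 532 through 569 to 600 CPM in old late input. It fell by 0.13 ± 0.05 on the log2 scale in old early (edgeR adjusted p = 0.0437) and by 0.16 ± 0.05 in old late input (edgeR adjusted p = 0.0230). The old early call was lost in 11 of 29 fits that left out a single library, with edgeR adjusted p from 0.0170 to 0.0810. It was also lost with upper quartile scaling, with no filter on low counts, with no sex covariate and with only the 2 groups compared, at edgeR adjusted p of 0.0525, 0.0545, 0.0569 and 0.0509. Grin2d, a GluN2 subunit prominent in interneurons, ran from 18.97 through 24.1 to 28.2 CPM in young, from 9.63 through 19.2 to 23.04 CPM in old early and from 17.4 through 19.7 to 23.7 CPM in old late input. Its log2 changes were -0.38 ± 0.09 (edgeR adjusted p = 0.00315) and -0.29 ± 0.11 (edgeR adjusted p = 0.0399). The old late call on Grin2d was lost in 8 of 29 such fits and with upper quartile scaling (-0.27, edgeR adjusted p = 0.0541).

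Grin3a ran from 37.5 through 43.8 to 50.9 CPM in young, from 31.3 through 41.5 to 47.2 CPM in old early and from 30.7 through 36.3 to 44.4 CPM in old late input. Its change passed the test only in old late input, at -0.26 ± 0.07 (edgeR adjusted p = 0.00644), against -0.11 ± 0.06 in old early input (edgeR adjusted p = 0.202). The difference between those 2 groups for Grin3a, -0.15 ± 0.07, had an edgeR adjusted p of 0.398. Grin2c, the GluN2 subunit most often linked to glia and cerebellum, had means of 68.7 ± 4.85, 64.8 ± 8.81 and 64.7 ± 6.19 CPM (SD, n = 10, 12 and 7) and changes of -0.08 ± 0.07 and -0.09 ± 0.08 that did not pass.

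Grin2b was the only member whose mean was higher in an old input. It ran from 32.02 through 48.0 to 65.4 CPM in young, from 37.02 through 60.9 to 87.04 CPM in old early and from 33.6 through 47.2 to 57.6 CPM in old late input. The 3 ranges overlapped, and the log2 differences were 0.31 ± 0.14 in old early (edgeR adjusted p = 0.0903) and -0.13 ± 0.16 in old late input (edgeR adjusted p = 0.577). Without old early replicate 2 or without young replicate 5 the old early difference passed the test, with an edgeR adjusted p as low as 0.0425 over all single leave-outs.

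In all, 6 members were lower and 0 higher in old early input, where 25.6% of 14948 genes tested were called, 12.6% lower and 13% higher. In old late input 7 were lower and 0 higher, where 34.5% of genes were called, 17.5% lower and 17% higher. The median log2 change of the 10 members was -0.12 in old early and -0.24 in old late input, against 0.01 over all genes in each. Gria1, Gria2 and Grin2a were the members whose old late range lay wholly below the young range, as did 4.01% of genes. In old early input no member had such a gap, which 0.896% of genes had. The plot of fold changes sets the 3 main comparisons side by side.

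**Figure D2:**
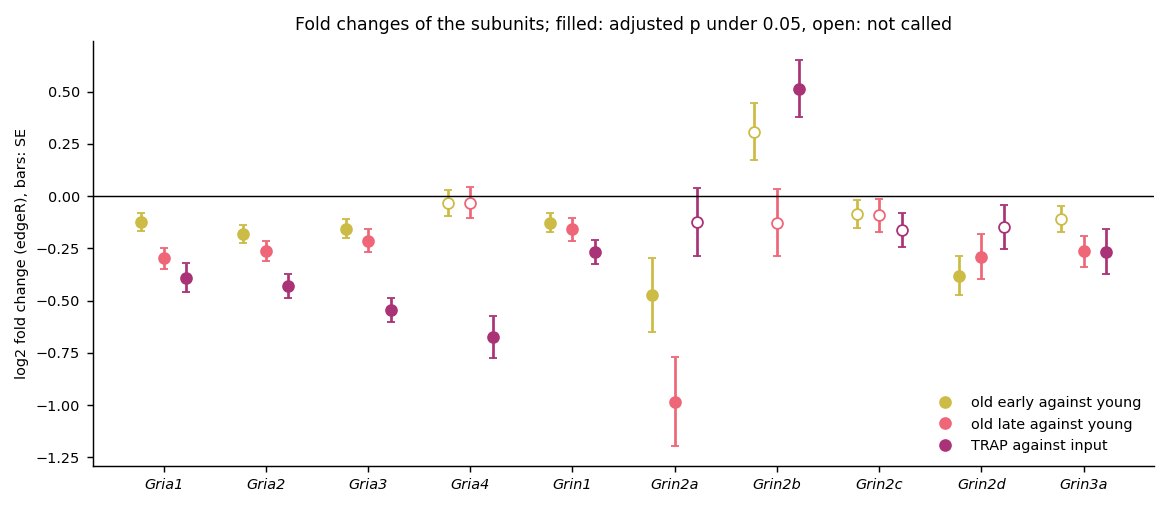
Log2 fold change (vertical axis, edgeR, bars are SE) of each subunit in old early and old late against young input and in TRAP against input of the old late-induced mice. Filled points passed an adjusted p of 0.05, and Grin2b in TRAP at 0.52 is the one filled point above 0.

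Marker lists were read beside these changes. Of 9 neuron markers tested, 1 was higher and 0 were lower in old early input and 0 passed in old late input, with medians of 0.01 and 0.02. In old early input 11 of 12 microglial, 7 of 8 oligodendrocyte and 5 of 9 astrocyte markers were higher, and in old late input 12 of 12, 8 of 8 and 5 of 9. The summed microglial level ran from 446 to 524 CPM in young, 597 to 720 CPM in old early and 642 to 948 CPM in old late input, and the oligodendrocyte sum from 2953 to 4577, 3796 to 5503 and 4027 to 6825 CPM. None of these markers was at 0. Of 4 dentate gyrus markers, 3 were lower in each old group, with summed levels of 340 to 389 CPM in young, 279 to 360 CPM in old early and 273 to 326 CPM in old late input. Of 5 CA field markers 1 was lower and 0 were higher in each old group. Of 8 interneuron markers 0 were lower in old early and 2 in old late input, and 0 were higher in either. The part of these cells in the receptor results was not tested. In whole tissue, fewer cells of a type and less RNA per cell cannot be told apart.

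Grin2a had the largest age changes of the members by fitted log2 value, and in both old inputs the widest relative spread, with a coefficient of variation of 37.8% in old early and 26.6% in old late input. In young input it ran from 32.1 through 41.8 to 48.4 CPM. Old early input ran from 7.78 through 36.3 to 45.8 CPM, and old late input from 14.4 through 21.1 to 31.8 CPM. Every old late library was below every young one, and old early replicates 2 and 5 stood apart at 10.7 and 7.78 CPM, against 23.5 CPM in the next lowest. The log2 changes were -0.47 ± 0.18 in old early (edgeR adjusted p = 0.0482) and -0.98 ± 0.21 in old late input (edgeR adjusted p = 0.000678). The old early call was lost in 16 of 29 fits without a single library, with edgeR adjusted p from 0.0184 to 0.0835, and under DESeq2 (adjusted p = 0.0512). It was also lost with no filter (edgeR adjusted p = 0.0524), with only the 2 groups compared (edgeR adjusted p = 0.0634) and with no sex covariate (-0.39, edgeR adjusted p = 0.119). With old early replicates 2 and 5 both left out, a choice made after seeing the data, the old early change of Grin2a was -0.25 ± 0.11 (edgeR adjusted p = 0.103) and the old late change -0.92 ± 0.13 (edgeR adjusted p = 1.472e-06). In that fit 3 members (Gria2, Gria3 and Grin2d) were lower in old early input, where 20.6% of genes were called. The same 2 libraries, old early replicates 2 and 5, had the lowest Grin1 levels among inputs, 473 and 460 CPM. Replicate 2 also held the highest summed thalamus markers of the inputs, 348 CPM, and replicate 5 the highest choroid plexus markers, 4103 CPM. The part of neighbouring tissue in these levels was not tested.

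The level of Grin2a moved with that of other genes whose deposited model ends early. The median deviation from each gene's mean over the 36 libraries was taken over 408 genes shortened by more than 5 kb, members left out. From it was subtracted that of 10916 genes whose model ends at, beyond or shortly before the RefSeq 3′ end. This difference ran from 0.03 to 0.10 on the log2 scale in young input, from -0.15 to 0.10 in old early, from -0.08 to 0.03 in old late input and from -0.19 to -0.01 in TRAP. Old early replicates 5 and 2, the lowest for Grin2a, had the lowest values of all inputs, -0.15 and -0.09. With this level added as a covariate, after seeing the data, the Grin2a changes were -0.06 ± 0.07 in old early (edgeR adjusted p = 0.618) and -0.02 ± 0.10 (edgeR adjusted p = 0.912) in old late input, and the SE shrank from 0.18 and 0.21. The covariate is itself lower in the old groups than in the young, so the fit also removes any age change that runs along it. In that fit 2 members passed in old early input, Gria2 lower at -0.13 ± 0.04 (edgeR adjusted p = 0.0297) and Grin2b higher at 0.45 ± 0.13 (edgeR adjusted p = 0.0179), where 15.9% of genes were called. In old late input only Gria1 passed, at -0.21 ± 0.06 (edgeR adjusted p = 0.0145), where 11.5% of genes were called. The plot of subunit level against shortened-gene level shows the libraries of Grin2a, Grin2b and Grin1 on this axis.

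**Figure D3:**
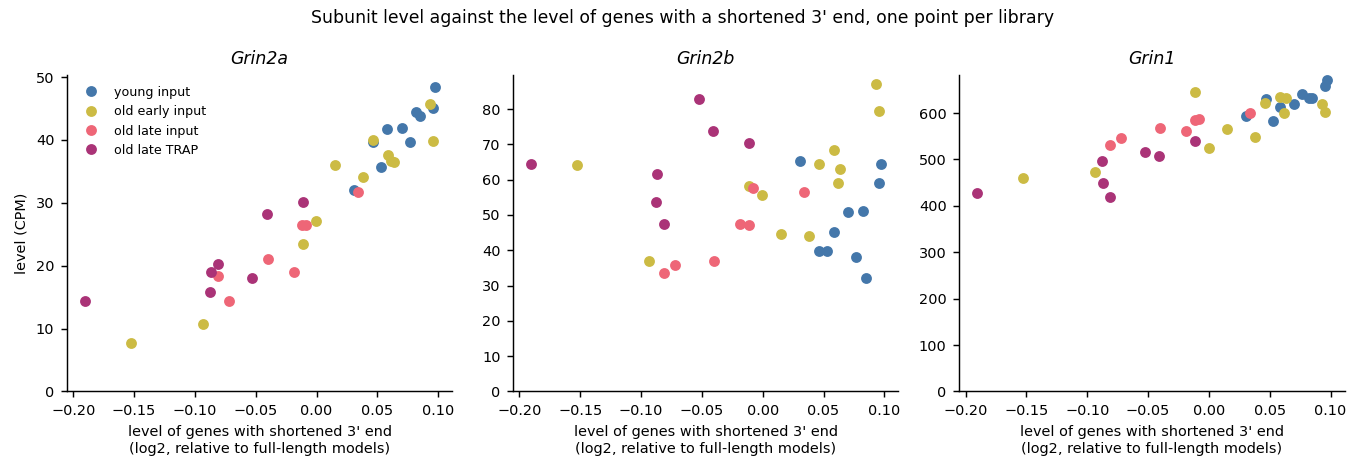
Level in CPM of Grin2a, Grin2b and Grin1 (vertical axes start at 0), with 1 point per library coloured by group. The horizontal axis is the median log2 level of 408 genes with a shortened 3′ end. It is relative to genes whose model ends at, beyond or shortly before the RefSeq 3′ end, called full-length on the axis. The lowest inputs on the horizontal axis, old early replicates 5 and 2, hold the 2 lowest Grin2a levels.

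The early-induced inputs held enough mice of both sexes to set the age difference in males beside that in females. Grin2a ran from 39.7 through 41.9 to 48.4 CPM in 5 young males and from 7.78 through 23.5 to 39.8 CPM in 5 old early males. In females it ran from 32.1 through 39.7 to 44.4 CPM in 5 young and from 34.1 through 36.7 to 45.8 CPM in 7 old early mice. The ranges of the females overlapped, while those of the males met only in the highest old and the lowest young male. In a fit with an interaction of age and sex, added after seeing the data, the Grin2a age change was -0.99 ± 0.24 in males and -0.05 ± 0.22 in females, a difference of -0.94 ± 0.32 with an edgeR adjusted p of 0.217 (unadjusted 0.00780). For Grin2d the changes were -0.66 ± 0.13 and -0.14 ± 0.12, a difference of -0.52 ± 0.17 with the same edgeR adjusted p of 0.217 (unadjusted 0.00588). In this fit 7 members were lower in old males (Gria1, Gria2, Gria3, Grin1, Grin2a, Grin2d and Grin3a), where 24.9% of genes were called, and 0 passed in old females, where 7.81% were called. No member and 0 of 14547 genes passed the interaction test, 2272 genes had an unadjusted p under 0.05, and the smallest edgeR adjusted p was 0.217. Old early replicates 2 and 5 were both males, and the shortened-gene level of the old early mice ran from -0.15 to 0.10 in males and 0.02 to 0.09 in females. In separate fits of females alone 0 members passed in old early input, where 8.06% of genes were called, and 3 passed in old late input, where 18.8% were called. Those 3 were Gria1 (-0.27 ± 0.06, edgeR adjusted p = 0.00265), Gria2 (-0.24 ± 0.06, edgeR adjusted p = 0.00679) and Grin2a (-0.68 ± 0.13, edgeR adjusted p = 0.000805). Over all inputs, 0 members differed between males and females by edgeR and 0 by DESeq2, where edgeR called 0.174% of genes. Grin2a alone had an unadjusted p under 0.05, at -0.36 ± 0.16.

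The 2 old input groups differ in when Cre was induced. No member passed the edgeR test between them, where 0.0334% of 14948 genes, 5 in number, were called, and 4 members had an unadjusted p under 0.05. Those were Gria1 (-0.17 ± 0.05, edgeR adjusted p = 0.146), Grin2a (-0.51 ± 0.20, edgeR adjusted p = 0.314), Grin2b (-0.44 ± 0.15, edgeR adjusted p = 0.257) and Grin3a. DESeq2 called 1 member, Gria1 at -0.17 ± 0.05 (DESeq2 adjusted p = 0.0497), and 0.726% of the 7990 genes to which it gave an adjusted p. That set is smaller than the one edgeR tested. Without old early replicates 2 and 5, edgeR called 2 members and 6.03% of genes. Both members were lower in old late input, Gria1 at -0.20 ± 0.04 (edgeR adjusted p = 0.00565) and Grin2a at -0.67 ± 0.12 (edgeR adjusted p = 0.00163). In females alone 1 member, Grin2a, passed between the old groups, where 1.22% of genes were called. Leaving out old early replicate 2 alone was enough for Gria1 to pass (edgeR adjusted p = 0.0391).

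Ratios of subunits within a library do not depend on library scaling. The CPM ratio of Gria1 to Gria2 had a geometric mean of 1.51 in young input (1.41 to 1.62), 1.57 in old early (1.53 to 1.66) and 1.48 in old late input (1.36 to 1.57). The old early ratio was 0.06 ± 0.02 log2 units above the young (permutation p = 0.00708, adjusted over 12 ratio tests 0.0212), and the old late ratio was 0.09 ± 0.03 below the old early (exact permutation p = 0.000715, adjusted 0.00286). All tests of ratios were two-sided. The ratio of Gria3 to Gria2 was 0.301, 0.306 and 0.312 in the 3 input groups and no age comparison of it passed, with log2 differences of 0.02 to 0.05 and adjusted exact or permutation p from 0.366 to 0.644.

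The ratio of Grin2a to Grin2b, which marks the mature composition of NMDA receptors, was 0.866 in young (0.49 to 1.37), 0.477 in old early (0.121 to 0.807) and 0.495 in old late input (0.402 to 0.570). Both old groups were lower than young, by 0.86 ± 0.24 and 0.81 ± 0.15 log2 units, each with a permutation p adjusted to 0.00286 (exact in the old late comparison). The difference between the old groups, 0.05 ± 0.23, did not pass the exact permutation test (adjusted p = 0.973). In TRAP the ratio was 0.315 (0.217 to 0.429), lower than in the input of the same animal in 7 of 7 animals, by a mean of 0.65 ± 0.48 log2 units (SD, n = 7, exact sign-flip p = 0.0156, the smallest possible, adjusted 0.0375). In females alone the ratio was 0.47 ± 0.26 log2 units lower in old early input and 0.81 ± 0.26 in old late input, with adjusted exact permutation p of 0.152 and 0.127. Both genes are counted without their long 3′ ends, and the part of the shortened-gene level in this ratio was not tested.

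TRAP was compared with input in the 7 old late-induced mice to see how much RNA of these mainly neuronal genes is kept in a pulldown aimed at microglia. Of the 10 members, 6 were lower and 1 was higher in TRAP, where 59.2% of 14596 genes were called, 28.8% lower and 30.4% higher. Their median log2 change was -0.27 against -0.02 over all genes. All 4 AMPA subunits were lower and did not overlap between TRAP and input, as did 9.81% of genes in that direction.

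Gria1 ran from 588 through 704 to 816 CPM in TRAP, and its TRAP level was 77.8% ± 8.39 of the input of the same animal (SD, n = 7). Gria2 ran from 408 through 466.2 to 515 CPM and kept 75.4% ± 5.79. Gria3 ran from 122 through 131 to 148 CPM and kept 69.6% ± 5.35. Gria4 ran from 32.9 through 37.7 to 51.9 CPM, against 54.9 through 63.3 to 81.3 CPM in input, and kept the least, 63.7% ± 7.85. Per animal, Gria4 kept 66.3, 80.0, 56.7, 59.5, 60.0, 59.6 and 63.8%. The log2 changes of Gria1 to Gria4 were -0.39 ± 0.07, -0.43 ± 0.06, -0.55 ± 0.06 and -0.67 ± 0.10, with edgeR adjusted p from 3.396e-07 to 0.000118.

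Of the NMDA subunits, Grin1 kept 84.3% ± 7.26 of input and ran from 419 through 496 to 541 CPM in TRAP, a fall of 0.27 ± 0.06 (edgeR adjusted p = 0.000845). Grin3a kept 85.5% ± 19.3 and fell by 0.27 ± 0.11 (edgeR adjusted p = 0.0434). That call on Grin3a was lost in 4 of 7 fits without 1 animal, namely animals 3, 4, 5 and 6, and with no filter on low counts (edgeR adjusted p = 0.0893). With the shortened-gene level as covariate Grin3a was at -0.14 ± 0.10 (edgeR adjusted p = 0.261), and 6 members were called where 56% of genes were. Grin2a kept 93.2% ± 13.5, Grin2c 91.0% ± 9.74 and Grin2d 92.5% ± 19.5, and their log2 differences of -0.12 ± 0.16, -0.16 ± 0.08 and -0.15 ± 0.11 did not pass. With the animal as replicate block, Grin2c also passed as lower (-0.16 ± 0.06, edgeR adjusted p = 0.0227), giving 8 members called where 63.9% of genes were.

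Grin2b was the member that was higher in TRAP. It ran from 47.4 through 64.6 to 83.0 CPM in TRAP and from 33.6 through 47.2 to 57.6 CPM in input. Per animal its TRAP level was 224, 150, 100.4, 130, 192, 128 and 124% of input, at or above the input in 7 of 7 animals. The log2 change was 0.52 ± 0.14 (edgeR adjusted p = 0.00380), and from 0.40 to 0.59 when each animal was left out in turn. With the shortened-gene level as covariate it was 0.68 ± 0.13 (edgeR adjusted p = 0.000332).

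**Figure D4:**
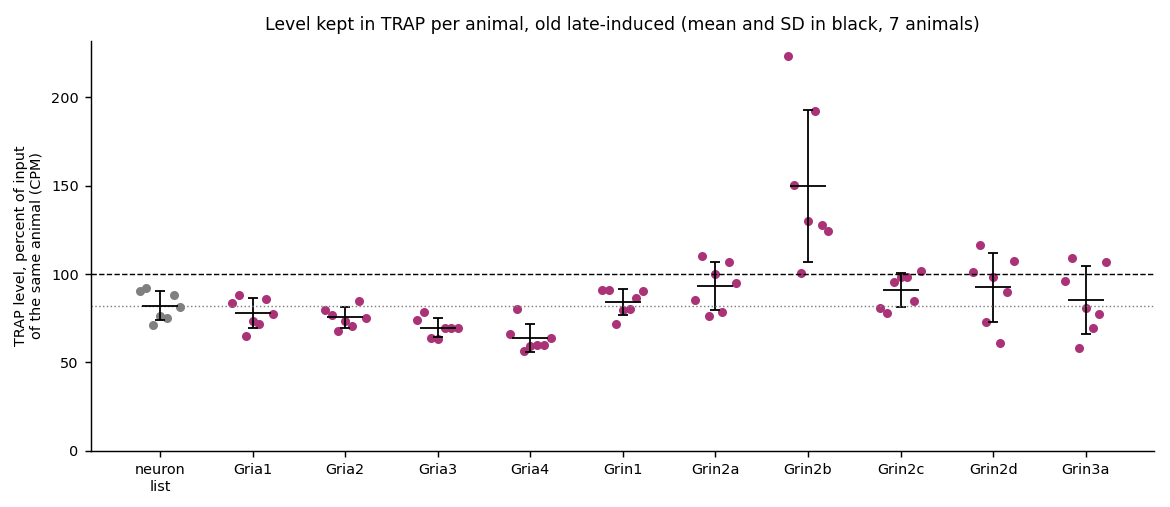
The vertical axis (starting at 0) is the TRAP level as a percent of the input of the same animal. Each point is 1 animal, with mean and SD in black. Subunits are from CPM scaled over all libraries. The 9 neuron markers in grey are from mean log2 ratios scaled over the libraries of the TRAP fit alone. Grey points and subunits therefore differ in scaling. The dashed line is 100%, Grin2b lies at or above it in all 7 animals, and Gria4 lies lowest with a mean of 63.7%.

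The size of these changes moved with the scaling, on which the percent kept also depends. Without a composition correction, using library size only, the median of all genes was -0.13 and 8 members were called (1 higher, 7 lower), where 63.8% of genes were. With upper quartile scaling the median was -0.16 and 9 were called (1 higher, 8 lower), where 66.1% of genes were. Called genes were then 38.3% and 33.98% higher, against 51.4% under the main scaling. Grin2b stayed above 0 under both, at 0.41 and 0.37. A comparison within each animal against the neuron markers avoids this choice. The 9 neuron markers together kept 81.8% of input, a mean log2 ratio of -0.29 ± 0.14 (SD, n = 7). Relative to them all 4 AMPA subunits were kept less in 7 of 7 animals. The log2 differences were -0.10 ± 0.03 for Gria1, -0.14 ± 0.08 for Gria2, -0.26 ± 0.09 for Gria3 and -0.39 ± 0.11 for Gria4. Grin2b was kept more in 7 of 7 animals, by 0.80 ± 0.36. Each of these 5 had the smallest two-sided p the exact sign-flip test allows with 7 animals, 0.0156, and an adjusted p of 0.0309. Among 14587 genes, 5.94% were called lower than the neuron markers and 44.6% higher. Grin1, Grin2a, Grin2c, Grin2d and Grin3a differed from the neuron list by 0.02, 0.16, 0.13, 0.13 and 0.01 and did not pass.

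Markers of other cells were read beside what was kept. In TRAP 8 of 9 astrocyte, 8 of 8 oligodendrocyte and 5 of 5 oligodendrocyte precursor markers were lower, with medians of -0.49, -1.33 and -1.26. The summed precursor level ran from 38.3 to 65.7 CPM in TRAP and from 103 to 132 CPM in input, and none of its markers was at 0. All 12 microglial and all 4 endothelial markers were higher, with medians of 4.28 and 1.34. Of 4 dentate gyrus markers 2 were higher and 1 lower, and of 5 markers of the CA fields 0 were higher and 3 lower. The part of these cells in what each subunit kept was not tested.

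Partner genes were read from fixed lists. The shares of all genes called, to read their counts against, were 25.6% in old early input (12.6% lower), 34.5% in old late input (17.5% lower) and 59.2% in TRAP (28.8% lower). Of 13 tested auxiliary proteins of AMPA receptors, 3 were lower in old early input and 5 lower and 3 higher in old late input, with medians of -0.05 and -0.09. Shisa7 and Shisa6, which modulate AMPA receptor gating, had the largest falls. Shisa7 was at 203 ± 11.7 CPM in young, 160 ± 25.95 in old early and 144 ± 19.4 in old late input (SD, n = 10, 12 and 7), with changes of -0.36 ± 0.07 and -0.54 ± 0.08 (edgeR adjusted p = 0.000423 and 1.559e-05). Shisa6 was at 165 ± 8.50, 133 ± 24.5 and 113 ± 10.2 CPM, with changes of -0.33 ± 0.07 and -0.58 ± 0.09 (edgeR adjusted p = 0.00157 and 9.015e-06). Gsg1l and Cacng3, also auxiliary subunits, rose in old late input by 0.38 ± 0.14 and 0.32 ± 0.09 (edgeR adjusted p = 0.0326 and 0.00753). In TRAP 8 of the 13 were lower and 0 higher, led by Cacng7 at -0.76 ± 0.07, which encodes a transmembrane AMPA receptor regulatory protein (edgeR adjusted p = 1.503e-07).

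Of 10 other ionotropic genes (kainate and delta receptors, the auxiliary genes Neto1 and Neto2, and Grin3b), 2 were lower in old early and 5 in old late input, 0 were higher, and the medians were -0.12 in both. Grik2, a kainate receptor subunit, fell by 0.23 ± 0.05 and 0.34 ± 0.06 (edgeR adjusted p = 0.000557 and 3.152e-05), and Neto1, an auxiliary protein of kainate receptors, by 0.39 ± 0.08 in old late input. Of 7 metabotropic receptors 3 were lower and 0 higher in each old group. Grm7, a presynaptic receptor, fell by 0.25 ± 0.06 and 0.32 ± 0.07. In TRAP 7 of the 10 and 4 of the 7 were lower and 0 higher. Grm3, also expressed in astrocytes, showed the largest fall of the metabotropic list at -0.75 ± 0.07.

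Of 17 postsynaptic scaffold genes, 5 were lower in old early and 8 lower and 1 higher in old late input, and medians of -0.12 and -0.14. Grip1, which binds the tails of AMPA subunits, fell by 0.20 ± 0.06 and 0.38 ± 0.08 (edgeR adjusted p = 0.0231 and 0.000319). Shank2 fell by 0.44 ± 0.14 in old late input, and Dlg1 rose by 0.15 ± 0.05. Of 13 calcium signalling genes downstream of NMDA receptors, 1 was higher and 0 lower in old early input and 1 higher and 6 lower in old late input. Camk2d, a calmodulin-dependent kinase, rose by 0.42 ± 0.13 and 0.70 ± 0.15, and Nos1, neuronal nitric oxide synthase, fell by 0.63 ± 0.18 in old late input. Nos1 also shared the direction of Grin2b in TRAP, at 0.48 ± 0.14 (edgeR adjusted p = 0.00796), the only gene of its list that was higher there, while 8 were lower. Of 8 genes of glutamate transport and synthesis, 1 was higher and 2 lower in old early and 1 higher and 4 lower in old late input. Glul, the glutamine synthetase of astrocytes, rose by 0.14 ± 0.03 and 0.18 ± 0.04.

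The genes whose pattern over the 36 libraries was nearest to each member were found by the root mean square difference of centred log2 CPM. Gria1 and Gria2 were among each other's 3 nearest of 12988 genes with a mean log2 CPM over 1, at 0.06. Grm5 was among the 3 nearest of both Gria2 and Gria3, at 0.07 and 0.09. Grin1 was nearest to Lphn1, Plk2 and Epb4.1l1 at 0.06 each. Gria4 was nearest to Strbp at 0.10, Grin2c to Pitpnm1 at 0.12, Grin3a to Lonrf2 at 0.12 and Grin2d to Ccdc85c at 0.17. The nearest gene to Grin2b was Tmem245 at 0.27. The members' own root mean square over the libraries ran from 0.177 (Grin1) to 0.636 (Grin2a), with 0.183 for Grin2c, 0.29 for Grin2d and 0.374 for Grin2b. A member that varies little lies near other steady genes by this measure. Grin2a was nearest to Tnr and Xkr4 at 0.19 and 0.20, and the RefSeq models of both reach 6.81 and 14.75 kb beyond the deposited ones. Among the 20 genes nearest to Grin2a, 8 of the 18 with a model (44.4%) were shortened by over 5 kb, against 3.26% of all. For Grin2b the count was 4 of 20, and for each of the other 8 members it was 0. These likenesses share libraries, depth and scaling across genes and are descriptions.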

How the data were processed

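Hippocampal polyA RNA was measured in 29 inputs and 7 TRAP libraries. Values were deposited as estimated counts in 1 table, marked raw per the file headers, and 77.4% of its nonzero values were not whole numbers. The submitters' processing notes name mm10 and DESeq2 without a role, and the aligner, counter and strand handling are not given in the sources used here.

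Estimated counts were rounded and tested in R 4.3.3 by the quasi-likelihood test of edgeR 4.0.16 (TMM scaling, low counts removed by filterByExpr at 10, Benjamini-Hochberg adjusted p under 0.05 over all genes tested). TRAP against input was fitted on 14 libraries with sex as covariate. This main fit did not use the pairing of TRAP and input by animal, which the fit with the animal as block did. All other contrasts came from 1 fit of 29 inputs with group and sex. Standard errors were derived from the F statistic. CPM used the full library total corrected by a TMM factor computed over all 36 libraries. Percent kept is the ratio of this CPM within an animal, so it carries that scaling. The neuron comparison was made on the log2 CPM scale after adding a prior count of 2. Ratios and retention were tested in scipy 1.17.1. Animal numbers in the labels pair TRAP with input, and deviations of the same animal correlated at 0.308 to 0.47, against a median of -0.0854 between animals. No 2 libraries of a group agreed within sampling noise.

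Alternatives were DESeq2 1.42.0, limma 3.58.1 voom, 3 scalings, no filter, other covariates and groups, females only, the animal as block and each library left out. The tests were tried on simulated data, with 100 genes changed at each size and libraries drawn independently, without pairing by animal. At a log2 change of 0.5 the fit recovered 64% of the changed genes in TRAP against input (14596 genes). It recovered 71% in old early against young and 69% in old late against young (14948 genes each). At 0.25 it recovered 17%, 45% and 44%. Unchanged genes made up 4.71%, 5.69% and 2.59% of the calls. Far fewer genes were changed than were called in the data, so these recoveries do not give the power of the main tests.

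The members and lists were chosen with earlier results of these data known. All 10 members are named, and of each pathway list the 2 largest called increases and decreases per comparison were eligible to be named, together with the 3 nearest genes of each member. Results of some of these genes are not reported here. Of 167 listed genes 166 were matched, 3 by identifier, and 4 were listed at 0 in all libraries. Gene ends and promoters are from RefSeq of GRCm38.p6, and exon lengths are from GENCODE.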

Additional observations from a re-analysis of the deposited data

Results flagged for a closer look

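Of 49 groups of values tested for a library far from the others, 2 met the criterion, where chance gives about 1 in 20, or 2.45. Both concern Gria4. In young input, replicate 9 had 77.01 CPM of Gria4, against 66.15 CPM in the next highest library. In TRAP, Gria4 kept 80% of input in animal 2, against 66.33% in the next highest animal. The 12 old early inputs, which hold the 2 lowest Grin2a libraries, were too many to be tested this way.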

How the results depend on the processing

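Without single libraries, the old early change of Grin1 lost its call for old early replicates 2, 5, 7, 8 and 9 and young replicates 1, 2, 3, 4, 7 and 10. Grin2a lost its own for old early 1, 2, 3, 5, 7, 8 and 9, old late 2 and 6 and young 1, 2, 3, 4, 8, 9 and 10, and Grin2d in old late input for old late 1, 2, 4 and 6 and young 1, 3, 4 and 10. All kept their direction. The count of members called between old late and old early input ran from 0 to 1. Retention against the neuron markers called 0 members whichever animal was left out (from 0 to 0, against 5), with adjusted p from 0.0547 to 0.0606 for the 5; the smallest p is higher with 6 animals than with 7. The ratio of Grin2a to Grin2b in TRAP against input, -0.65 with 7 animals, likewise had adjusted p over the threshold, with values from -0.71 to -0.53.

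Signs turned, without a call, for Gria4 in old late against young input (-0.10 to 0.0012) and against old early (-0.061 to 0.041), Grin2c in old late against old early (-0.049 to 0.033), the ratio of Grin2a to Grin2b there (-0.13 to 0.12), Grin3a against the neuron markers (-0.047 to 0.065) and, between males and females, Gria2 (-0.022 to 0.013), Gria3 (-0.016 to 0.019), Grin2b (-0.094 to 0.013), Grin2c (-0.014 to 0.061) and Grin2d (-0.090 to 0.0091). Gria4 was -0.0001 with only the 2 old groups and -0.0083 without old early replicates 2 and 5, and Gria3 between sexes -0.0017 without the filter.

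In females only, fewer mice were tested: 0 members passed in old early, 3 in old late and 1 between old groups. Grin3a in old early (0.015), Gria4 (0.023) and Grin2b (0.083) in old late input and the old late against old early ratio of Grin2a to Grin2b (-0.34) turned sign. The ratios of Gria1 to Gria2 in old early (0.054) and old late against old early (-0.088) and of Grin2a to Grin2b in old early (-0.47), old late (-0.81) and TRAP (-0.54) no longer passed. DESeq2 called 1 member between the old groups. With upper quartile scaling, no filter, no sex covariate or only the 2 groups compared, 4 members passed in old early input. Over all genes these fits called 3961, 3471, 3629 and 3724, against 3826 in the main fit. The losses were Gria1 and Grin1 under the first and Grin1 and Grin2a under the others. In old late input Grin2d was lost with upper quartile scaling.

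With the shortened-gene level as covariate 2 members passed in old early and 1 in old late input. Signs turned for Grin2a in TRAP (0.18), Gria4 in old early (0.027), Gria4 (0.082), Grin1 (0.039), Grin2b (0.17) and Grin2c (0.039) in old late input, and Gria3 (0.013), Grin1 (0.066), Grin2a (0.036) and Grin2c (0.059) between the old groups. Without old early replicates 2 and 5, 3 members passed in old early input and 2 between the old groups. Apart from the construction of each alternative, the cause was not tested. The animal as replicate block gave 8 members called in TRAP against input, adding Grin2c (-0.16), and changed no other call among the members. Depth left the lowest member count at 105 (Grin2a, old early input). Counting error was not compared with the spread between mice.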
